A study of Mus musculus with 23 samples.

Results

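The Kruppel-like factors described here are 7 genes, Klf2, Klf3, Klf4, Klf5, Klf9, Klf10 and Klf13, taken by name from the 53607 gene rows of a count table of mouse embryonic stem cells; all 7 passed the filter on low counts. All cells share one genetic background, called Raslox/lox by the submitters: H-Ras-/-, N-Ras-/-, a floxed RAS allele, and Ubiq-CreERT2, a Cre recombinase expressed from a ubiquitin promoter that acts only with 4-hydroxytamoxifen (OHT). OHT for 6 days gave the cells labelled RAS deleted, and an ERF knockout was made in the same background, so that 4 kinds of cells were compared: the reference cells (ERF wild type, RAS present), the RAS-deleted cells (ERF wild type, OHT), the cells labelled ERF knockout (RAS present) and the cells labelled double mutant (ERF knockout label, OHT). Each kind was grown in 2iL, which blocks MEK and GSK3, supplies LIF and keeps cells naive, or for 48 hours in FA (FGF2 at 12 ng/ml and Activin A at 20 ng/ml), which turns them toward epiblast-like cells. This made 8 groups with n = 3 libraries each, except the reference cells in FA with n = 2, and 23 libraries in all. All cells labelled RAS deleted, and no others, received OHT, and effects of OHT and of the deletion cannot be told apart. The labels do not say whether an ERF knockout line is 1 clone or whether replicates are separate cultures; p-values measure only the spread between these libraries.

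Kruppel-like factors are transcription factors whose zinc fingers bind GC-rich and CACCC sequences. Klf2, Klf4 and Klf5 are part of the network that sustains naive pluripotency: LIF, acting through STAT3, induces Klf4 and Klf5, and ERK signalling opposes the network. Klf3 represses genes through the corepressor CtBP, while Klf9, Klf10 and Klf13 form a subgroup that can recruit Sin3 corepressors, and Klf10 was first described as an early gene of TGF-beta signalling. RAS passes signals from FGF receptors to ERK, and ERF is an ETS-family repressor that ERK removes from the nucleus.

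In the GENCODE M21 annotation of GRCm38, the 7 protein-coding genes lie on 7 chromosomes: Klf2 at chr8:72319033-72321656 (+ strand), Klf3 at chr5:64803388-64832901 (+), Klf4 at chr4:55527143-55532466 (-), Klf5 at chr14:99298691-99315036 (+), Klf9 at chr19:23141226-23168134 (+), Klf10 at chr15:38291463-38300706 (-) and Klf13 at chr7:63886351-63938915 (-). Klf3 shares its span and strand with C230096K16Rik, and Klf9 with the microRNA gene Mir1192. Genes on the opposite strand overlap Klf3 (Gm20033) and Klf13 (Gm27252, E030018B13Rik); the libraries kept strand, but how Salmon was set to use it is not given in the sources used here. Of all 31-base words in a member's transcripts, the share also found in another gene was 0.0% for Klf2 and Klf9 and at most 2.0%, in Klf4. The zinc fingers are the stretch where the members are most alike, and even the longest runs shared between 2 coding sequences were shorter than a read. Over whole transcripts, which include UTRs, Klf3 and Klf13 each had 4 such 31-base words in common with other members, and the rest had none. The runs of the 2 pairs with the longest are shown because they are where the coding sequences of members are most alike letter by letter:
Klf5 and Klf9: TCGGATGAGCTGACCCGCCACTAC
Klf2 and Klf10: ACACACACAGGTGAGAAG
The first run is 24 bases long and the second 18.

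RefSeq promoter windows of GRCm38.p6 were on hand for 5 of the 7 genes. Those of Klf2, Klf4 and Klf13 are printed 5′ to 3′ on the gene's strand, as the 250 bases before the RefSeq start. For these 3 members the effect of RAS deletion in FA differed with the ERF label by at least 2-fold at an adjusted p under 0.05 (below). Klf3, Klf5 and Klf9 passed that p with smaller differences. Capitals mark GC boxes (GGGCGG) and CACCC boxes on either strand, which are the kind of sequence that Kruppel-like factors bind.
Klf2, chr8:72318812-72319061, + strand: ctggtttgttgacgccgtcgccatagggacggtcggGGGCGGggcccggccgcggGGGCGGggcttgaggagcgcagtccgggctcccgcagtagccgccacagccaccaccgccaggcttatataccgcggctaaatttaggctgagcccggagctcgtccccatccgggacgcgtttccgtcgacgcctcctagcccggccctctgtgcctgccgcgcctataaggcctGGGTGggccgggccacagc
Klf4, chr4:55532476-55532725, - strand: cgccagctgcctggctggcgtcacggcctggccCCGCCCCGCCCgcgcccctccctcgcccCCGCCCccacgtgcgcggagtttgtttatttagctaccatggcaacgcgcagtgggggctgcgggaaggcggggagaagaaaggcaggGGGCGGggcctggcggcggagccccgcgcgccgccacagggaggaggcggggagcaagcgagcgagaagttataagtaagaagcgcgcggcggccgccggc
Klf13, chr7:63938916-63939165, - strand: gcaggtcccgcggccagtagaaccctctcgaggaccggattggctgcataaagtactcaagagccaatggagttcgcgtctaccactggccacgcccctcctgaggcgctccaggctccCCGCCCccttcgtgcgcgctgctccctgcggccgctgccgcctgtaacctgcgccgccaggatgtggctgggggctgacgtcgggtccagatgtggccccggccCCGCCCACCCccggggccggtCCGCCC
These windows held 2, 4 and 3 GC boxes and 1, 0 and 1 CACCC boxes; in Klf13 the CACCC box overlaps a GC box. Of 32851 RefSeq windows of this length, 32.7% held a GC box and 52.0% a CACCC box. The windows were 71.2%, 74.0% and 71.6% G or C, against a median of 52.4% over all windows. The Klf3 window held 6 GC boxes and 5 CACCC boxes, and the Klf9 window no GC box and 1 CACCC box. The letters CCGGAA, a core that ETS proteins bind, were in none of the 5 windows and in 12.0% of all windows. TTCNNNGAA, the STAT site, was found once, in Klf9, and in 7.02% of all windows. A match or its absence says nothing of binding by any factor.

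Libraries held 16.2 to 29.9 M counts. The predicted gene Gm26917 took 17.6 to 27.9% of them. Levels are given in CPM, counts scaled to the size of each library. The knockout labels could not be read from the counts: Erf was listed at 1193 counts or more in every library and stood at 116 ± 17.5 CPM (SD, n = 3) with the ERF knockout label against 77.6 ± 7.66 CPM (SD, n = 3) in reference cells in 2iL. Between the 2 kinds of RAS-deleted cells in 2iL, Erf was also higher with the knockout label (log2 fold change 0.79, adjusted p = 6.89e-05), and in FA its difference did not pass (-0.14 with RAS present, -0.20 with RAS deleted). Hras and Nras, labelled -/-, had at least 188 and 95 counts. Pou5f1, which marks all pluripotent cells, was at 272 CPM or more in every library, and was called lower in FA in cells labelled double mutant (log2 fold change -1.31, adjusted p = 4.82e-12). The summed level of 13 markers of other cell types (endoderm, trophoblast, mesoderm, neural and fibroblast genes) ran from 23.4 to 57.1 CPM in the 2iL libraries; in FA it was 95.1 to 117 CPM in reference cells, 26.6 to 31.5 CPM in RAS-deleted cells, 90 to 94.6 CPM in cells labelled ERF knockout and 116 to 121 CPM in cells labelled double mutant. No marker was at 0 in all libraries of a group, and the leading one in FA was the neural gene Sox1, or Pax6 in RAS-deleted cells. The group with the highest Klf4 level in FA had the lowest sum, and the part of these cells in the results was not tested.

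Some libraries need naming before the results, because Klf2 lies on chromosome 8. In replicate 1 of the reference and RAS-deleted cells, in both media, the 581 other chromosome 8 genes were raised by 0.24 to 0.36 on the log2 scale relative to genes on the other autosomes. In the other 19 libraries this difference ran from -0.09 to -0.01. These 4 libraries, and no libraries labelled ERF knockout, carried the shift, and Klf2 was the highest of its group in each. Its log2 level stood above the group mean by 0.30 and 0.42 in 2iL and by 0.39 and 0.85 in FA (reference and RAS-deleted cells). Whether the shift accounts for these Klf2 levels was not tested. Called Klf2 results that use these libraries are therefore given with and without them.

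**Figure D1:**
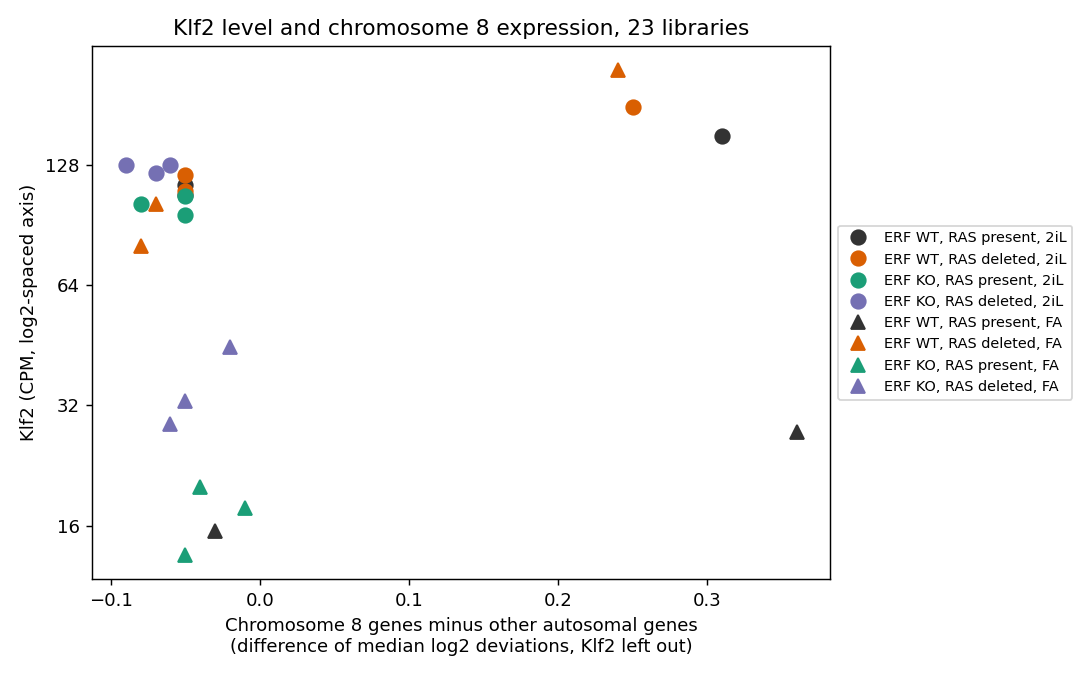
Klf2 level (CPM, log2-spaced axis) against the difference between chromosome 8 genes and other autosomal genes (median log2 deviation, Klf2 left out); each point is 1 library, circles are 2iL and triangles FA. 4 libraries sit at 0.24 to 0.36 on the horizontal axis, all others between -0.09 and -0.01; within each group that has one, the library on the right has the highest Klf2.

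The levels of different genes were compared per transcript length, in TPM, which is scaled for both length and depth. In reference cells in 2iL, Klf4 was the most abundant of the 7 at 92.6 ± 11.1 TPM (SD, n = 3), followed by Klf5 at 70.2 ± 8.09, Klf2 at 67.8 ± 8.90, Klf3 at 51.1 ± 6.06, Klf9 at 36.6 ± 4.70, Klf10 at 30.7 ± 1.88 and Klf13 at 17.6 ± 3.21 TPM. In FA the same cells had their highest mean in Klf9 at 27.3 ± 1.38 TPM (SD, n = 2), and Klf4 was the lowest at 1.68 ± 0.799 TPM. Klf2 was the highest in all 3 RAS-deleted libraries in FA, at 81.5 ± 38.6 TPM (SD, n = 3). The first place was not separated in the other kinds of cells. Klf10 had the highest mean with the ERF knockout label, at 30.2 ± 2.56 TPM, but lay below Klf9 in library 2 (28.2 against 28.7 TPM), and in reference cells it was at 16.6 and 31.45 TPM, below and above Klf9. Klf13 had the highest mean in cells labelled double mutant, at 31.5 ± 1.44 TPM, but lay below Klf3 in library 3 (31.2 against 32.4 TPM). In 2iL, Klf4 had the highest mean and Klf13 the lowest in all 4 kinds, although Klf2 was above Klf4 in RAS-deleted library 1, which has the raised chromosome 8.

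**Figure D2:**
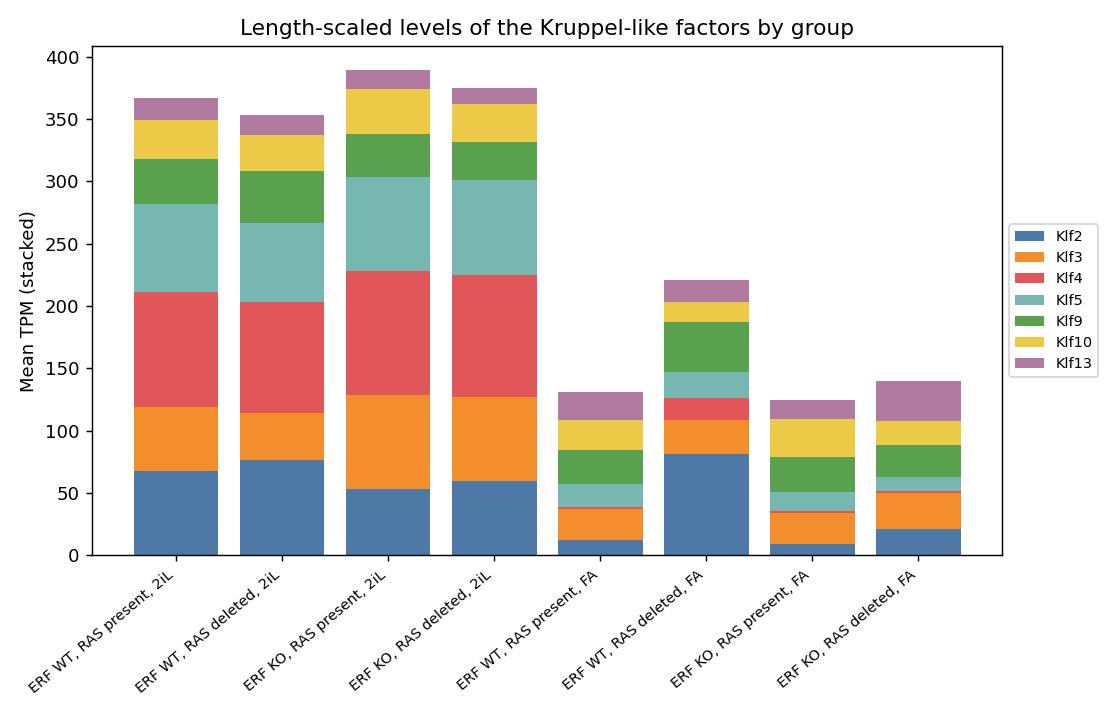
Mean TPM of the 7 genes, stacked, in the 8 groups (n = 3 libraries, or 2 for reference cells in FA; no error bars, SDs are in the text). Klf4 takes the largest part of every 2iL bar and nearly vanishes in FA except in RAS-deleted cells, where Klf2 is the largest part.

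In the comparison of FA with 2iL, which asks how the factors respond when cells leave the naive state, Klf2, Klf4 and Klf5 fell in reference cells. A change is called here when the adjusted p of edgeR's quasi-likelihood test, over 20372 genes, is under 0.05 and the change is at least 2-fold. By that rule 3 of the 7 were called, all lower, against 24% of all genes tested; the median log2 fold change of the 7 was -0.80, and that of all genes 0.035. In bulk RNA, fewer cells of a type and less RNA per cell cannot be told apart. In reference cells Klf3 and Klf9 also fell, by less than 2-fold, and the fitted change of Klf13 was upward (below). The members were chosen with earlier results of these data known, so these changes do not test the name of the group as factors of naive cells.

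Klf4, a core naive factor and a reprogramming factor, stood at 219, 241 and 253 CPM in the 3 reference libraries in 2iL and at 3.56 and 3.36 CPM in the 2 in FA. The groups lay far apart. The log2 fold change was -6.10 (SE 0.18, adjusted p = 1.97e-16), 68.4-fold lower. Klf2, which shares targets with Klf4 in these cells, was at 151, 107 and 114 CPM in 2iL and at 27.4 and 15.5 CPM in FA, again without overlap, a log2 fold change of -2.52 (SE 0.40, adjusted p = 6.16e-05). Without the 4 libraries with raised chromosome 8 it was -2.85 (adjusted p = 3.59e-06), with the lone remaining reference library in FA assumed to vary like the other groups. The same holds for every value below that leaves out a reference library in FA. Klf5, which the naive network also needs, was at 224, 254 and 244 CPM in 2iL and at 61.4 and 59.5 CPM in FA. Its log2 fold change was -1.99 (SE 0.15, adjusted p = 4.65e-10).

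The other 4 members moved by less than 2-fold in reference cells. Klf3, the CtBP-binding repressor, went from 79.0 to 87.1 CPM in 2iL to 45.0 to 50.9 CPM in FA (log2 fold change -0.80, adjusted p = 1.16e-08). Klf9, a hormone-responsive member, had a log2 fold change of -0.45 (adjusted p = 0.00118) and Klf13, a regulator best known from lymphocytes and heart, one of 0.86 (adjusted p = 7.41e-08). These 3 passed the adjusted p but not the 2-fold minimum. Klf10 could not be placed: its 2 FA libraries stood at 40.7 and 85.7 CPM, one below and one within the 75.5 to 88.1 CPM of 2iL (log2 fold change -0.38, SE 0.21, adjusted p = 0.145). Without the second FA library its log2 fold change was -1.02 (adjusted p = 4.85e-05), and without the first 0.05.

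**Figure D3:**
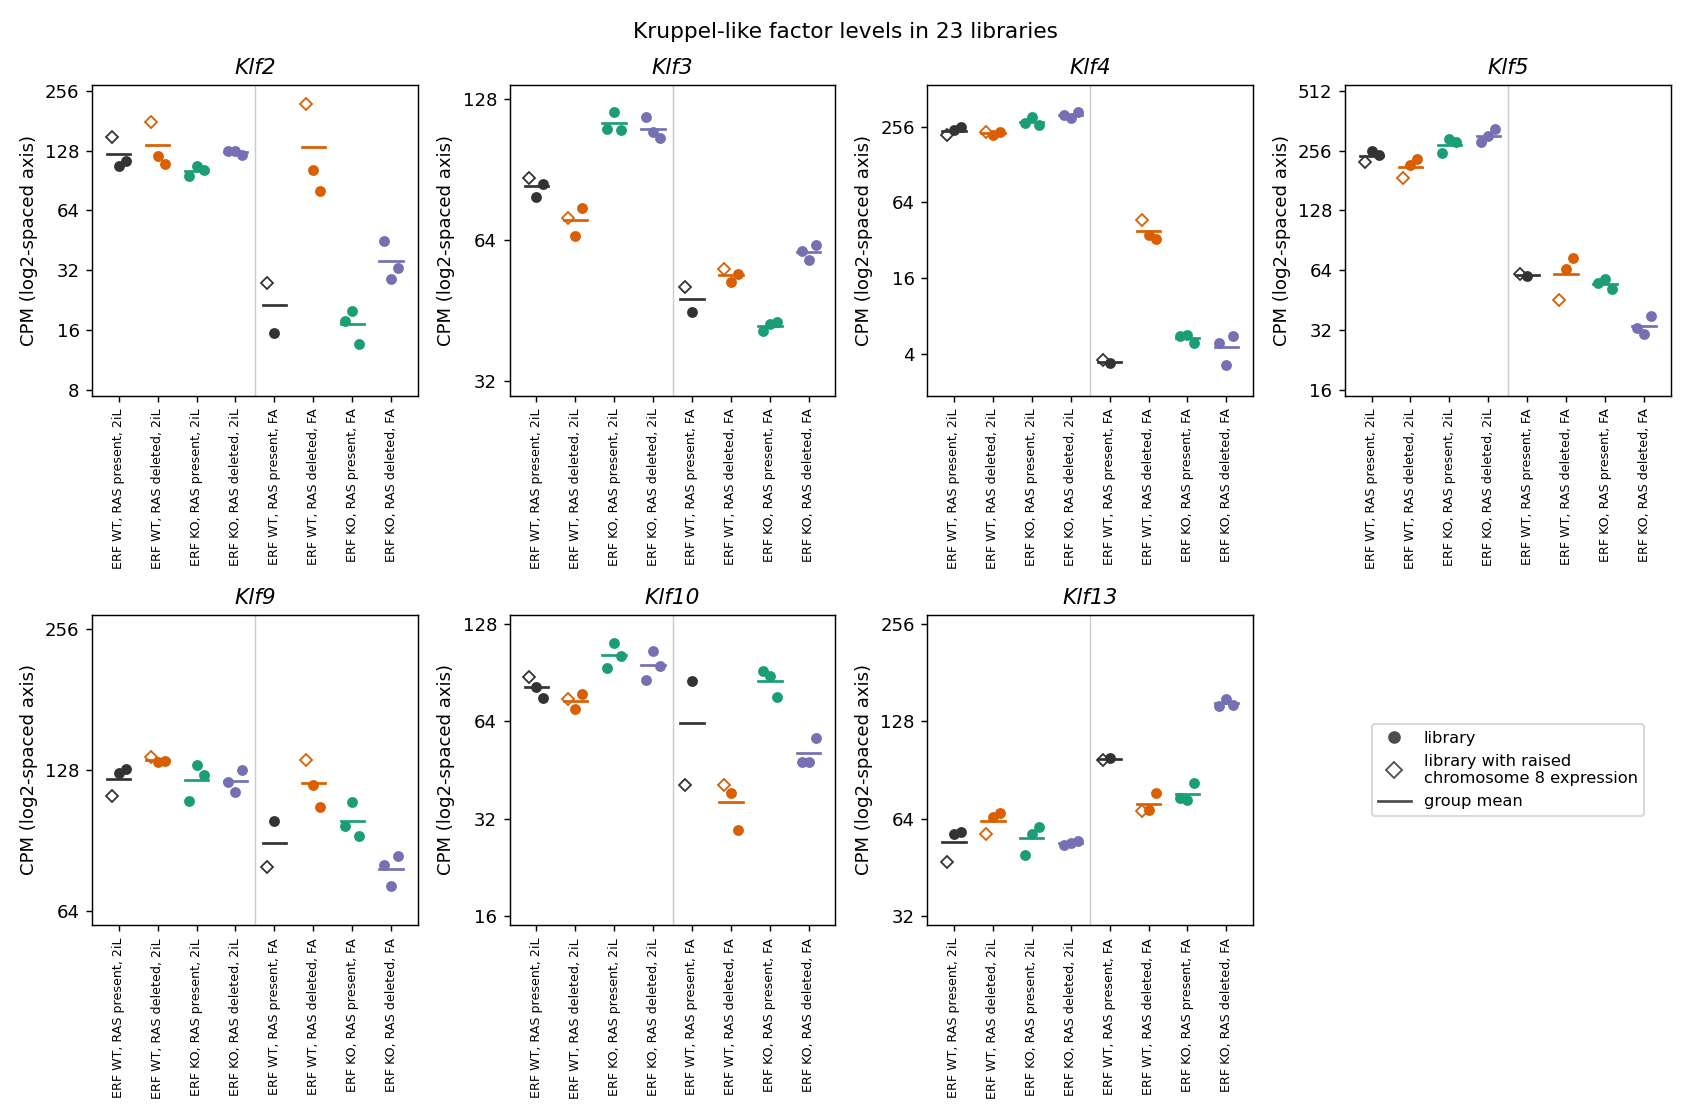
Level of each gene (CPM, log2-spaced axis; the range differs between panels) in 23 libraries by group; points are libraries, short lines group means, and open diamonds the 4 libraries with raised chromosome 8 expression. Klf4 falls from 219 CPM or more in 2iL to 46.4 CPM or less in FA in every kind of cell, Klf2 stays at 79.9 to 220.4 CPM in RAS-deleted cells in FA, and Klf13 is highest in cells labelled double mutant in FA.

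In RAS-deleted cells the move to FA left Klf2 high. Klf2 was at 178, 121 and 109.7 CPM in 2iL and at 220.4, 102 and 79.9 CPM in FA; the groups overlapped, and the log2 fold change was -0.02 (SE 0.31, adjusted p = 0.964), or -0.34 (adjusted p = 0.164) without the libraries with raised chromosome 8. Klf4, at 221 to 233 CPM in 2iL, was at 46.4, 35.1 and 32.6 CPM in FA, a log2 fold change of -2.59 (SE 0.12, adjusted p = 4.69e-13). Klf5 fell by 1.79 on the log2 scale (SE 0.13, adjusted p = 4.6e-10). Klf10 fell by 1.04 (SE 0.19, adjusted p = 0.000219), from 69.8 to 77.8 CPM to 29.4 to 40.6 CPM; without RAS-deleted library 3 in FA its change was 0.91 downward, under the 2-fold minimum. In all, 3 of 7 were called, all lower, against 16.5% of all genes.

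In cells labelled ERF knockout with RAS present, 4 of 7 were called, all lower, against 19.7% of all genes. Klf4 went from 265 to 305 CPM to 4.90 to 5.60 CPM (log2 fold change -5.72, SE 0.15, adjusted p = 1.16e-17), Klf2 from 95.5 to 107 CPM to 13.5 to 20.0 CPM (-2.57, SE 0.35, adjusted p = 1.3e-05) and Klf5 by -2.33 (SE 0.13). Klf3 was called here too, at 110.1 to 120.2 CPM in 2iL and 41.0 to 42.8 CPM in FA, a log2 fold change of -1.43 (SE 0.07, adjusted p = 1.29e-13); whether its fall differed from that in reference cells was not tested. In cells labelled double mutant 4 of 7 were called, 3 lower and 1 higher, against 24.9% of all genes. The other 3, Klf10 (-0.91, adjusted p = 0.000421), Klf3 (-0.87) and Klf9 (-0.62), passed the adjusted p with falls under 2-fold. Klf4 again lay at 3.27 to 5.51 CPM in FA (log2 fold change -6.12, SE 0.15, adjusted p = 2.26e-18), Klf5 fell by 3.18 (SE 0.14, adjusted p = 5.25e-14) and Klf2 by 1.83 (SE 0.33, adjusted p = 0.000176). Klf13 rose: it was at 52.8, 53.9 and 54.5 CPM in 2iL and at 143, 149.8 and 144 CPM in FA, a log2 fold change of 1.44 (SE 0.09, adjusted p = 3.5e-12).

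RAS deletion in 2iL, where a MEK inhibitor is present, called none of the 7 in either ERF background, against 1.20% of all genes with ERF wild type and 0.211% with the ERF knockout label. With ERF wild type, Klf3 passed the adjusted p but not the 2-fold minimum (log2 fold change -0.24, adjusted p = 0.0381), and Klf13 (0.22, adjusted p = 0.137) passed only an unadjusted p under 0.05. No member passed even that with the knockout label, and DESeq2 also called none. In FA with ERF wild type, 2 of 7 were called, both higher, against 17.3% of all genes. Klf4 was at 46.4, 35.1 and 32.6 CPM in RAS-deleted cells and at 3.56 and 3.36 CPM in reference cells, a 10.9-fold difference (log2 3.45, SE 0.17). It remained well under its 2iL level. Klf2 was at 220.4, 102 and 79.9 CPM against 27.4 and 15.5 CPM, and the groups did not overlap (log2 fold change 2.63, SE 0.40, adjusted p = 6.06e-05).

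The chromosome 8 shift touches both sides of this Klf2 difference. Between the 2 raised libraries, Klf2 was 8.04 times higher with RAS deleted; between the means of the other libraries it was 5.88 times higher. Without the raised libraries the fitted log2 fold change was 2.57 (adjusted p = 1.18e-05), which sets 2 RAS-deleted libraries against 1 reference library and takes its spread from the other groups. Klf5, the third naive factor, stood at 45.4, 64.6 and 74.0 CPM with RAS deleted and 61.4 and 59.5 CPM with RAS present; the groups overlapped (log2 fold change 0.02, SE 0.14, adjusted p = 0.922). Klf9 (0.42), Klf13 (-0.47) and Klf10 (-0.80) had adjusted p of 0.00257, 0.000318 and 0.00431 with changes under 2-fold, and Klf3 was at 0.17 (adjusted p = 0.0836). The Klf10 value turned on the reference libraries in FA: it was -1.23 (adjusted p = 1.82e-06) without library 1 and -0.16 (adjusted p = 0.502) without library 2.

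Among libraries labelled ERF knockout, the loss of RAS in FA called 1 of 7, against 6.88% of all genes. Klf2 was at 44.8, 28.7 and 32.7 CPM in cells labelled double mutant against 17.7, 20.0 and 13.5 CPM with RAS present, a log2 fold change of 1.06 (SE 0.34, adjusted p = 0.0311). The ranges did not overlap, but the call was lost when any of 4 of the 6 libraries was left out, namely the 3 with RAS present or library 1 labelled double mutant, with adjusted p up to 0.141. Klf4 did not pass, at -0.22 (SE 0.16, adjusted p = 0.312). Klf13 (0.93, adjusted p = 5.96e-08), Klf3 (0.52, adjusted p = 8.97e-06), Klf5 (-0.70, adjusted p = 0.000442), Klf10 (-0.75, adjusted p = 0.00626) and Klf9 (-0.34, adjusted p = 0.0111) passed the p but were under 2-fold.

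The ERF knockout label alone called no member at RAS present, against 9.72% of all genes in 2iL and 2.36% in FA, nor in 2iL with RAS deleted, against 13%. DESeq2 also called none in these 3. Several members passed the adjusted p with changes under 2-fold. In 2iL with RAS present this was Klf3 (log2 fold change 0.44, adjusted p = 3.12e-05), and in FA Klf4 (0.62, adjusted p = 0.0375) and Klf13 (-0.36, adjusted p = 0.0191). In 2iL with RAS deleted it was Klf3 (0.65, adjusted p = 1.23e-07), Klf4 (0.47, adjusted p = 0.00209), Klf5 (0.53, adjusted p = 0.00181) and Klf13 (-0.23, adjusted p = 0.0413). An unadjusted p under 0.05 alone was reached by Klf4 in 2iL with RAS present (0.24, adjusted p = 0.121) and by Klf3 (-0.19, adjusted p = 0.121) and Klf10 (0.44, adjusted p = 0.196) in FA. The Klf10 value in FA was 1.09 (adjusted p = 0.000407) without reference library 2 and 0.03 (adjusted p = 0.965) without reference library 1.

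In FA with RAS deleted, the ERF label called Klf2 and Klf4 lower and Klf13 higher: 3 of 7 were called, 2 lower and 1 higher, against 16.6% of all genes. Klf4 was at 4.89, 3.27 and 5.51 CPM in cells labelled double mutant and 46.4, 35.1 and 32.6 CPM in RAS-deleted cells (log2 fold change -3.05, SE 0.14, adjusted p = 2.75e-13). Klf2 was at 44.8, 28.7 and 32.7 CPM against 220.4, 102 and 79.9 CPM (-1.92, SE 0.33, adjusted p = 0.000179; -1.35, adjusted p = 3.7e-05, without the raised libraries, all of which lie on the ERF wild type side). Klf13 was at 143, 149.8 and 144 CPM against 67.7, 68.2 and 76.8 CPM (1.04, SE 0.08, adjusted p = 1.17e-09). Klf5 fell short of the 2-fold minimum at -0.87 (adjusted p = 1.19e-05) and passed it at -1.04 without RAS-deleted library 1 in FA. Klf9 (-0.61, adjusted p = 1.64e-05) and Klf10 (0.50, adjusted p = 0.0408) also passed the p with changes under 2-fold.

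**Figure D4:**
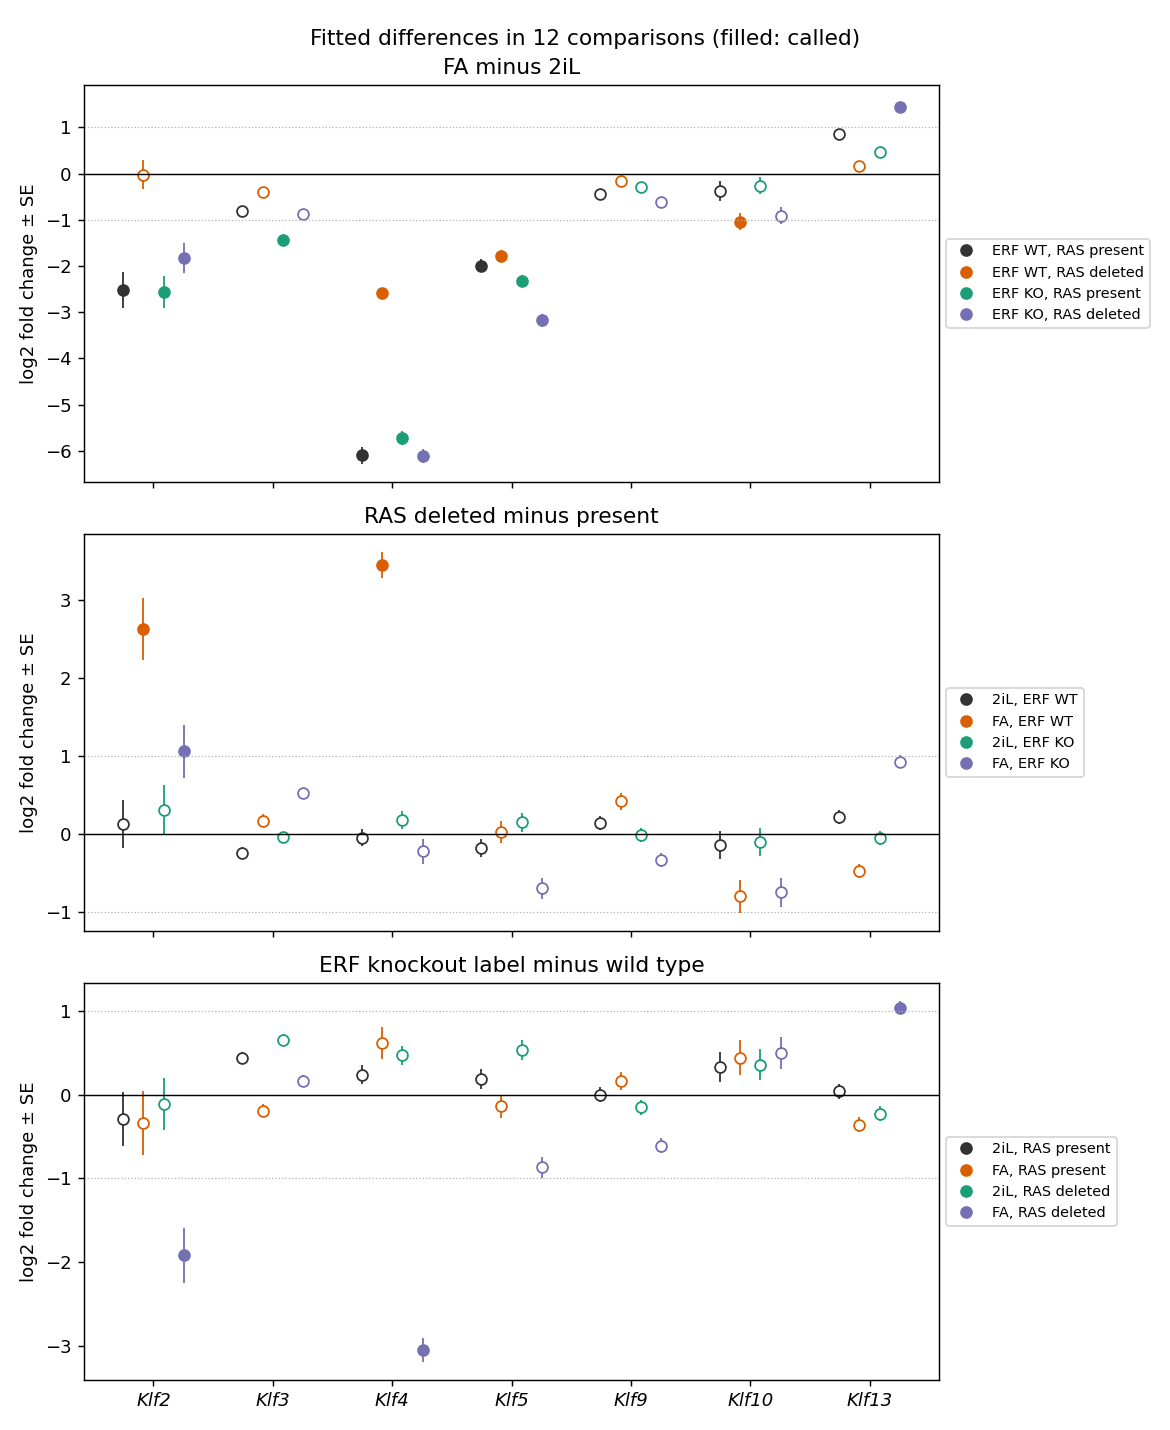
Fitted log2 fold change ± SE of each gene in the 12 comparisons that change 1 factor; filled points are called (adjusted p under 0.05 and at least 2-fold, dotted lines). In the top panel Klf4 stands near -6 in 3 kinds of cells and at -2.59 in RAS-deleted cells; in the middle and bottom panels the filled points are in FA.

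Whether the effects differ between backgrounds was tested by interaction terms. The effect of RAS deletion in FA differed with the ERF label for 3 of 7, against 13.7% of all genes. For Klf4 the difference, ERF knockout minus wild type, was -3.67 on the log2 scale (SE 0.23, adjusted p = 2.91e-10), for Klf13 1.39 (SE 0.13, adjusted p = 2.76e-08) and for Klf2 -1.58 (SE 0.51, adjusted p = 0.0288). The Klf2 call was lost when the model held only the compared groups (-1.62, adjusted p = 0.108) and on leaving out any of 6 of the 11 libraries: RAS-deleted library 1, reference library 2, libraries 1 and 2 labelled ERF knockout, and libraries 2 and 3 labelled double mutant, all in FA (adjusted p up to 0.128). It was -1.51 (adjusted p = 0.0039) without the raised libraries. In 2iL the same interaction called none, against 0.378% of all genes; Klf3 (0.20) and Klf13 (-0.27) had an unadjusted p under 0.05, and DESeq2 called none.

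The response to FA differed with RAS deletion, in ERF wild type cells, for 2 of 7, against 11.9% of all genes: Klf4 by 3.50 (SE 0.20, adjusted p = 4.59e-11) and Klf2 by 2.50 (SE 0.50, adjusted p = 0.00146; 2.51 without the raised libraries). With RAS deleted, the response to FA differed with the ERF label for 4 of 7, against 11.3% of all genes: Klf4 by -3.52 (SE 0.18, adjusted p = 1.22e-11), Klf2 by -1.80 (SE 0.45, adjusted p = 0.00725; -1.49 without the raised libraries), Klf5 by -1.39 (SE 0.18, adjusted p = 5.99e-06) and Klf13 by 1.27 (SE 0.12, adjusted p = 7.05e-08). This interaction term was also called, and negative, for all 4 general pluripotency genes (Pou5f1 by -1.03, adjusted p = 4.74e-07). For Lin28a and Utf1 it reflects a smaller rise in FA with the knockout label (2.96 and 0.64) than with ERF wild type (4.76 and 1.76). The part of these genes in the result was not tested. Klf3, Klf9 and Klf10 were called in none of the 4 interactions with all libraries in the model. Differences under 2-fold passed the adjusted p for Klf3 in 3 of them (0.35 for RAS by ERF in FA, 0.41 for medium by RAS and -0.48 for medium by ERF; adjusted p = 0.0117, 0.00467 and 0.000592) and for Klf9 in 2 (-0.76 for RAS by ERF in FA and -0.46 for medium by ERF; adjusted p = 0.000293 and 0.0135), and likewise for Klf5 for RAS by ERF in FA (-0.73, adjusted p = 0.00679) and Klf13 for medium by RAS (-0.69, adjusted p = 0.000306). For Klf10 the difference in the FA response with RAS deletion was -0.66 (adjusted p = 0.0938); it was called without reference library 1 in FA (-1.09, adjusted p = 0.000261) and was -0.02 without reference library 2. These comparisons share groups and are not independent of each other.

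The order of the groups differed among the members. Klf2 ran from 136 CPM in RAS-deleted cells in 2iL through 134 CPM in the same cells in FA to 17.1 CPM in cells labelled ERF knockout in FA; the first 4 groups overlapped as neighbours, and so did the last 2. Klf4 had 4 groups of 229 CPM or more (all 2iL), then RAS-deleted cells in FA at 38.1 ± 7.35 CPM (SD, n = 3) on their own, then 3 groups under 6 CPM that overlapped one another as neighbours. Klf5 was lowest in cells labelled double mutant in FA at 33.6 ± 3.62 CPM, below and without overlap with the 54.8 ± 3.25 CPM of the cells labelled ERF knockout. Klf3 was highest in 2iL with the ERF knockout label (114 ± 5.76 CPM and 111 ± 6.08 CPM, RAS present and deleted, overlapping). Klf9 varied least: its group means ran from 78.8 to 135 CPM and 6 of the 7 neighbouring pairs overlapped. Klf10 was lowest in RAS-deleted cells in FA at 36.1 ± 5.92 CPM. Klf13 alone had its 4 highest groups in FA, from 70.9 ± 5.13 to 146 ± 3.77 CPM.

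Over the 23 libraries, Klf4 and Klf5 were most alike among the members, with a Pearson r of 0.94 on log2(CPM + 1), and Klf4 and Klf13 least, at -0.84, as were Klf5 and Klf13. The libraries share their media and kinds of cells, and these values include the differences between the 8 groups. After group means were removed, Klf4 and Klf5 were at -0.11, while Klf2 and Klf5 were at -0.62 and Klf4 and Klf9 at 0.67. In 3 of the 4 libraries with raised chromosome 8, all but the reference library in FA, Klf2 was the highest and Klf5 the lowest of the group; their part in the -0.62 was not tested. Among 11148 genes, those most like Klf4 over the 23 libraries were Tfcp2l1, a naive transcription factor (r = 0.994), Cd9 (0.993) and Mras (0.993). Klf2 was most like Fbxo15 (0.975), Acot9 (0.975) and Phf11d (0.967), and Klf5 most like Gjb5 (0.986), Aldh1l1 (0.979) and Slc6a7 (0.973). Klf3 was nearest Phf20 (0.965), Sec14l1 (0.960) and Mical3 (0.955), Klf9 nearest Svil (0.944), Mib2 (0.936) and Serpinb6c (0.928), and Klf13 nearest Stra6l (0.960), Adgrv1 (0.955) and Jakmip2 (0.954). Klf10 had 2 ribosomal protein genes, Rpl17 (0.964) and Rps20 (0.960), and Ppt2 (0.964) as its nearest.

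Of the 10 other genes of the family, 9 were tested. In reference cells 6 of them were called between FA and 2iL, 4 higher and 2 lower, against 24% of all genes, with a median log2 fold change of 0.48. Klf15 fell by 2.53 (SE 0.23) and Klf8 by 2.02 (SE 0.18), whereas Klf12 rose by 2.27 (SE 0.32) and Klf7 by 1.64 (SE 0.20). Klf8 was the only one of the 9 called for RAS deletion in FA with ERF wild type, at 1.95 (SE 0.18), a share below the 17.3% of all genes. In FA with RAS deleted, the ERF label called Klf8 lower (-1.95, SE 0.15) and Klf7 higher (1.81, SE 0.18), 2 of 9 against 16.6% of all genes. Of the 9 SP genes, the sister family with the same type of zinc fingers, 8 were tested and 3 called in reference cells (against the same 24%), with Sp5, a target of Wnt signalling, at -4.12 (SE 0.77), Sp9 at -1.44 (SE 0.55) and Sp8 at 3.41 (SE 0.46). The broadly expressed Sp1, Sp2, Sp3 and Sp4 were called in none of the 12 comparisons.

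**Figure D5:**
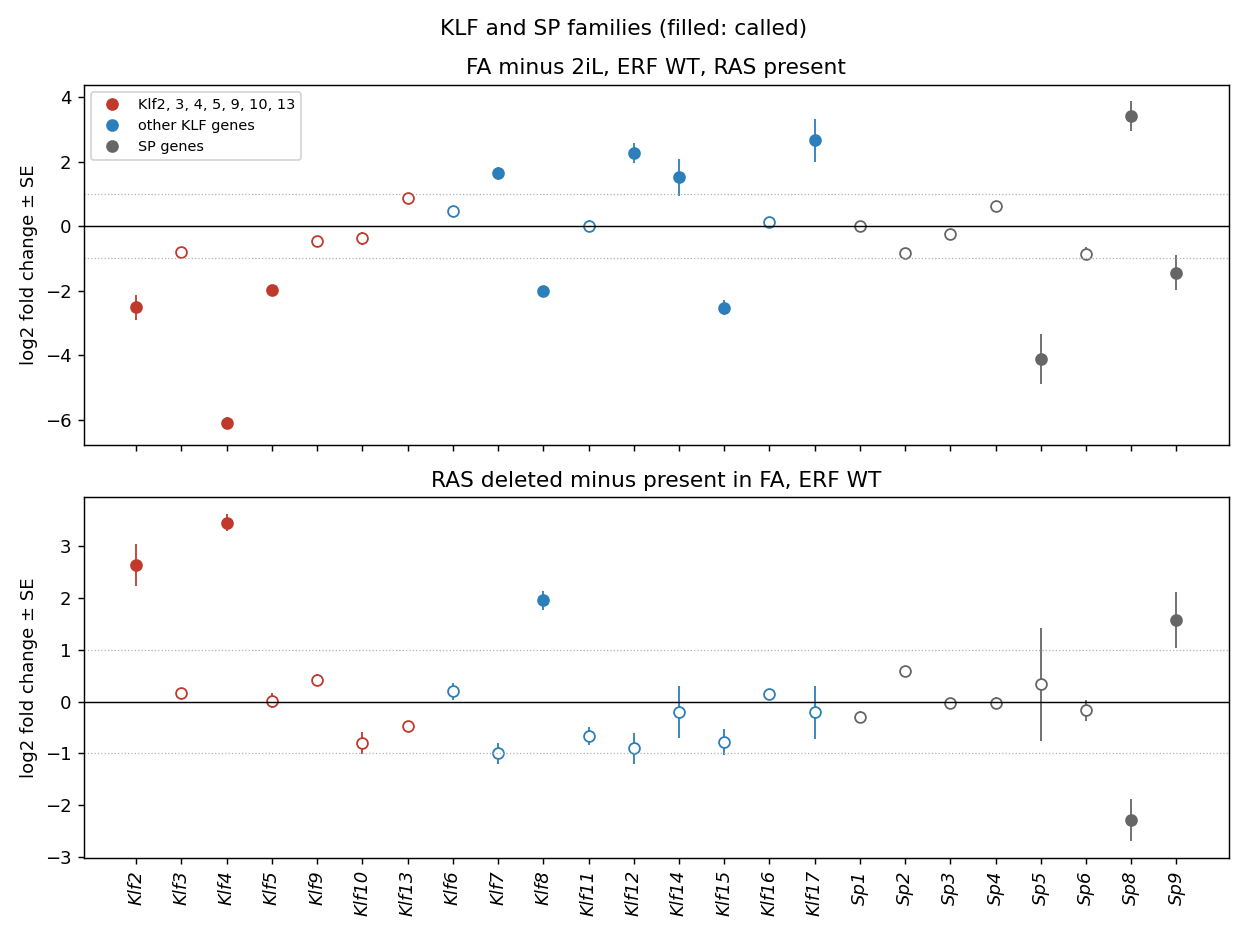
Log2 fold change ± SE of the 7 genes (red), the other tested KLF genes (blue) and the tested SP genes (grey) for FA minus 2iL in reference cells (top) and RAS deleted minus present in FA with ERF wild type (bottom); filled points are called. Klf4 is the lowest point at the top and the highest at the bottom, and Klf8 is called in the same direction as Klf2 in both.

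The naive network, 12 genes without any Kruppel-like factor, gives the setting of Klf2, Klf4 and Klf5. In reference cells 9 of the 12 were lower in FA and 1 higher (median log2 fold change -3.29 against 0.035 for all genes), against 24% of all genes called in either direction; in RAS-deleted cells 6 were lower (median -1.0), against 16.5%. For RAS deletion in FA, 9 were higher and 1 lower with ERF wild type (median 2.47), against 17.3% of all genes, and with the ERF knockout label 1 was higher and 2 lower (median 0.31), against 6.88%. The germ cell regulator Prdm14, for example, was at 5.26 (SE 0.30) and 1.42 (SE 0.39) in these 2 comparisons, the orphan receptor gene Nr5a2 at 3.39 (SE 0.26) and 0.85 (SE 0.29), Tbx3 at 2.39 (SE 0.30) and -2.15 (SE 0.28), and Dppa3 at 2.39 (SE 0.26) and -1.52 (SE 0.27).

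Upstream of Klf4 and Klf5, the LIF and STAT3 list had 4 of 10 genes lower in FA in reference cells and 3 of 10 in RAS-deleted cells, against 24% and 16.5% of all genes called in either direction. Socs3, the feedback inhibitor that STAT3 induces, fell by 3.69 (SE 0.24) and 3.64 (SE 0.22), and Stat3 itself by 2.05 (SE 0.12) and 1.25 (SE 0.10). Bcl3 was higher by 1.97 (SE 0.20) and the receptor gene Lifr by 1.02 (SE 0.15) in RAS-deleted cells in FA relative to reference cells; these were the 2 of 10 called there, near the 17.3% of all genes. Of 12 ERK response genes, 6 rose and 1 fell in FA in reference cells, against 24% of all genes, and 9 were lower with RAS deleted in FA with ERF wild type, against 17.3%. Spry4, an inhibitor of receptor signalling that ERK induces, was at -6.52 (SE 0.29), Etv4 at -3.09 (SE 0.21), Dusp6, an ERK phosphatase, at -2.89 (SE 0.22) and Etv1 at -1.09 (SE 0.32). With the ERF knockout label 7 of the 12 were lower, against 6.88% of all genes called, Spry4 by -4.41 (SE 0.26) and Etv4 by -5.39 (SE 0.26).

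Beside Klf10, the list of genes induced by Activin and TGF-beta had 9 tested members, of which 4 rose in FA in reference cells and 5 in RAS-deleted cells, none falling, against 24% and 16.5% of all genes called. Lefty1, an inhibitor of Nodal, rose by 10.15 (SE 0.23) and 9.81 (SE 0.22), where Klf10 was at -0.38 and -1.04. The first Klf10 value did not pass (adjusted p = 0.145), and the second was under the 2-fold minimum without 1 library (above). Of the 10 cofactors that Kruppel-like proteins bind, none was called between FA and 2iL in any of the 4 kinds of cells, where 16.5 to 24.9% of all genes were. Sap30, a subunit of the Sin3 complex, was called for RAS deletion in FA with ERF wild type (1.01, SE 0.18), and Sin3b for the ERF label in FA with RAS deleted (-1.18, SE 0.11). Each was the only 1 of the 10 called there, against 17.3% and 16.6% of all genes. Ctbp1, the partner of Klf3, and Hdac2 were called in none of the 12.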

How the data were processed

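Total RNA of mouse embryonic stem cells was depleted of ribosomal RNA and read as 75 bp pairs from strand-specific libraries, per the labels' protocols. The submitters' processing notes name bcl2fastq 2.20.0, fastp 0.20.0, Salmon (no version) and the build mm10. The authors deposited estimated counts and TPM per gene for each library, and a matrix of rounded estimated counts, which was used here.

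Genes were tested with edgeR 4.0.16 (R 4.3.3): filterByExpr by group, TMM, and a robust quasi-likelihood test in 1 model of 23 libraries and 8 groups, with Benjamini-Hochberg adjustment over 20372 genes; calls need an adjusted p under 0.05 and a 2-fold change. A standard error is the size of the fitted change over the square root of F. CPM use TMM-adjusted totals. The 16 comparisons comprise 12 that change 1 factor and 4 interactions. Intervals from counting alone were not used, since reads without molecular identifiers are not independent. The code was tested on simulated data.

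The members and lists were chosen with earlier results of these data known. Named genes are all 7 members, at most 4 genes per other list (called in the most of the 12 comparisons, ties by fold change; in the KLF and SP lists some uncalled genes are named as well) and the 3 genes most correlated with each member among those with a group mean of at least 5 CPM, without predicted genes; an item that the rule would name is not reported here. Pairs of replicates differed by a chi-square per degree of freedom of 3.04 to 44.9 (22 pairs), so each library counted once. Replicate numbers are shared between groups in the labels; same-numbered libraries correlated at -0.0782 to 0.184 after group means were removed, and no comparison had every pair above 0.1, so no pairing was used. Alternatives were RLE size factors, DESeq2 1.42.0, no filter, no Gm26917, only the compared groups, a replicate block, no 2-fold minimum, leaving out each library, and, chosen after seeing the data, leaving out the 4 libraries with raised chromosome 8 expression. Chromosomes and spans come from GENCODE M21, promoters from RefSeq (GRCm38.p6).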

Additional observations from a re-analysis of the deposited data

Results flagged for a closer look

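Effects that differed between groups by an interaction test, edgeR's quasi-likelihood test with adjustment over all genes, were found in 3 interactions. In the order given here, 3, 2 and 4 of the 7 members were called, against 13.7%, 11.9% and 11.3% of all genes. The effect of RAS deletion in FA differed between ERF backgrounds (knockout label minus wild type, log2) for Klf4 by -3.67, Klf13 by 1.39 and Klf2 by -1.58. The response to FA differed with RAS deletion in ERF wild type cells for Klf4 by 3.50 and for Klf2 by 2.50. With RAS deleted, the response to FA differed with the ERF label for Klf4 by -3.52, Klf2 by -1.80, Klf5 by -1.39 and Klf13 by 1.27. The 3 terms share libraries, among them the 3 of RAS-deleted cells in FA, 1 of which has raised chromosome 8 expression and the highest Klf2 level of the 23 (220.4 CPM). Without the 4 libraries with that shift the 3 Klf2 values were -1.51, 2.51 and -1.49, all called, with 1 reference library left in FA for the first 2. The first Klf2 call (adjusted p = 0.0288) was lost when the model held only the compared groups (adjusted p = 0.108) and on leaving out any of 6 of its 11 libraries (adjusted p up to 0.128).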

How the results depend on the processing

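The 112 pairs of a member and a comparison, 29 of them called, were recomputed under the alternatives, which gave 1673 values; 1580 kept direction and side of the threshold, 12 lost a call, 44 gained one and 37 turned the sign of a value that was called in neither fit. Of the 12 losses, 11 came from leaving out 1 library and concerned Klf2 (RAS deletion in FA with the ERF knockout label, and its interaction in FA) and Klf10; the cause was not tested. Of the gains, 35 came from dropping the 2-fold minimum. Without it the members called numbered, of 7, 6 and 7 for FA minus 2iL in reference and cells labelled double mutant (49.5% and 55.7% of all genes under the same rule), 1 for RAS deletion in 2iL with ERF wild type (5.70%), 5 and 6 for RAS deletion in FA with ERF wild type and knockout (41.3% and 26.4%), 1 and 4 for the ERF label in 2iL (27.8% and 39.1%) and 2 and 6 in FA (9.78% and 42.8%; RAS present and deleted), 6 for the RAS by ERF interaction in FA (28%) and 4 for the medium by RAS interaction (24.5%). Leaving out 1 library gave 0 to 1 called for the ERF label in FA with RAS present and 0 to 1 for RAS deletion in FA with the ERF knockout label.

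The correlations of same-numbered libraries did not meet the rule for pairing, although replicate 1 of the reference and RAS-deleted cells shares the raised chromosome 8 in both media. In 3 comparisons with 3 pairs every library correlated best with its own number, a hint from the data only. With the replicate block 0 calls of members were lost and 0 gained; Klf5 turned to -0.15 for RAS deletion in FA with ERF wild type and Klf10 to -0.06 for the RAS by ERF interaction in FA. Over all genes the block moved the count for RAS deletion in 2iL with the ERF knockout label from 43 to 207 and for the RAS by ERF interaction in 2iL from 77 to 154.

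Other signs turned in values that were called in neither fit. Klf5 was at -0.01 without the filter for RAS deletion in FA with ERF wild type, and Klf9 at 0.01 without Gm26917 and 0.00 with only the compared groups for the ERF label in 2iL with RAS present. Without the 4 libraries with raised chromosome 8, Klf10 was at 0.11 for FA minus 2iL in reference cells, Klf13 at -0.04 for the ERF label in 2iL with RAS present, Klf2 at 0.17 in FA with RAS present and 0.14 in 2iL with RAS deleted, and Klf10 at -0.02 for the RAS by ERF interaction in 2iL; Klf10 became called for RAS deletion in FA (-1.33) and the medium by RAS interaction (-1.24), and Klf5 for the ERF label in FA with RAS deleted (-1.04). Leaving out 1 library, Klf2 ranged from -0.58 to 0.25 for FA minus 2iL in RAS-deleted cells, -0.11 to 0.30 for RAS deletion in 2iL with ERF wild type, and, for the ERF label, -0.25 to 0.14 in 2iL with RAS deleted and -0.67 to 0.17 in FA with RAS present. Klf10 ranged from -1.02 to 0.05 for FA minus 2iL in reference cells, and -0.06 to 0.11 (2iL) and -0.60 to 0.47 (FA) in the RAS by ERF interaction. Klf5 ranged from -0.14 to 0.20 for RAS deletion in FA with ERF wild type; Klf3 from -0.08 to 0.01, Klf9 from -0.09 to 0.04 and Klf13 from -0.14 to 0.01 for RAS deletion in 2iL with the ERF knockout label; and Klf9 from -0.06 to 0.09 and Klf13 from -0.04 to 0.14 for the ERF label in 2iL with RAS present.

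Counts over all genes moved by over 1.5 times in every comparison without the 2-fold minimum (266 to 11353 called), and without the filter from 244 to 559, 43 to 240, 480 to 881 and 77 to 457 (RAS deletion in 2iL with ERF wild type and knockout, the ERF label in FA with RAS present, and the RAS by ERF interaction in 2iL). DESeq2 called 85 and 138 where 43 and 77 were called, the compared groups alone 75 for 43 and 266 for 480, and the fit without the 4 libraries 104 for 244 and 235 for 480. Limits: the reference cells in FA have 2 libraries, which disagree for Klf10; the ERF label could not be checked from Erf; and levels of Klf4 in FA rest on 3.27 to 5.60 CPM outside RAS-deleted cells.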

Other observations

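The other state markers moved beside the Kruppel-like factors in FA. Of 7 epiblast-like genes, 7 rose in FA in each of the 4 kinds of cells, where 16.5 to 24.9% of all genes were called, Fgf5 by 9.47 (SE 1.00) in reference cells, 6.32 (SE 0.95) in RAS-deleted cells, 8.72 (SE 1.09) with the ERF knockout label and 10.65 (SE 1.11) in cells labelled double mutant, while Klf4 fell in all 4. Otx2 rose by 2.41 (SE 0.21), 3.94 (SE 0.20), 4.03 (SE 0.24) and 4.85 (SE 0.25) in the same order. For RAS deletion in FA with ERF wild type, 4 of the 7 were lower and Otx2 higher (1.03, SE 0.19), against 17.3% of all genes called. Of the 4 general pluripotency genes, Sox2 fell by 1.65 (SE 0.13) in FA in reference cells and was at 0.05 (SE 0.11) in RAS-deleted cells, and Lin28a rose by 5.70 (SE 0.40) and 4.76 (SE 0.38). Of the 13 markers of other cell types, 7 were lower and 1 higher with RAS deleted in FA, against the same 17.3%, Hand1 by -4.39 (SE 0.43), Gata6 by -4.02 (SE 0.33) and Sox1 by -2.44 (SE 0.16), with Pax6 at 0.07 (SE 0.27).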
